A study of Mus musculus with 18 samples.

Results

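The distal colon absorbs sodium, chloride and water and secretes bicarbonate and chloride through a small set of epithelial proteins, and the 10 genes described here encode its best known members. They were taken by symbol from the deposited gene tables: Car1, Car2, Car4, Slc26a3, Slc4a4, Slc9a2, Slc9a3, Scnn1a, Cftr and Slc12a2. All 10 were present among the 16321 genes of the tables, and all 10 were among the 16300 genes tested.

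Polyadenylated RNA of distal colon biopsies was sequenced from 18 mice of the BALB/c strain, 3 in each of 6 groups. Of these groups 5 were mice that lack interleukin 10 (Il10KO), sampled at 6, 8, 10, 12 or 14 weeks of age, and the other was the wild type at 6 weeks. Interleukin 10 restrains intestinal inflammation, and mice without it develop spontaneous colitis. The Il10KO allele is not given in the sources used here, and the groups held no wild-type mouse older than 6 weeks, so disease and age after week 6 cannot be told apart. The wild-type mice all lived in cage G and no knockout did, so an effect of that cage and one of genotype cannot be told apart either. The Il10KO mice came from cages A to F.

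Surface colonocytes take up salt by coupled exchange: sodium/proton exchangers of the apical membrane bring in sodium while an anion exchanger brings in chloride for bicarbonate, and carbonic anhydrases turn carbon dioxide into the proton and bicarbonate that are exchanged. In the distal colon the epithelial sodium channel adds uptake that is not tied to chloride. Crypt cells secrete chloride, which a sodium-potassium-chloride cotransporter loads from the blood side and the channel Cftr releases into the lumen.

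In 18 libraries the summed estimated counts lay between 26.5 and 35.5 M. Il10 itself was at 0 counts in every Il10KO library and at 1, 0 and 3 counts in the wild type, too few to check the genotype of a single library. Lipocalin, a marker of gut inflammation, was 2.27 to 4.72 ng/g at week 6 and 2044 to 4289 ng/g at week 14 of Il10KO. RNA integrity (RIN) was 6.5 and 5.8 in replicates 2 and 3 of week 14 and 8.4 to 9.3 in the other 16 libraries. All 12 epithelial structure markers were detected, and their summed level was 13830 to 25700 CPM in every library. In biopsies, fewer cells of a type and less RNA per cell cannot be told apart. Levels are given within a gene as CPM, counts scaled to a common library total with TMM factors, and between genes as TPM, which corrects for transcript length. Changes are log2 fold changes ± SE (3 mice a group), estimated by edgeR from the 18 libraries together. A gene was called where the quasi-likelihood test gave an adjusted p under 0.05 over all tested genes. The labels do not say how the mice of a group are related, so the p-values measure the spread between these mice.

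Most of the 10 genes had lower mean levels in Il10KO mice of 10 to 14 weeks than at week 6, and Car1 had the largest change of the set at week 10. At week 10, 5 of 10 were called, against 24% of all tested genes: Car1, Slc4a4, Cftr and Car2 fell, where 9.48% of all genes fell, and Slc9a3 rose, where 14.6% rose. Week 12 had 1 call, Car1, which fell, against 1.85% of all genes called, 0.491% lower and 1.36% higher. In the 14-week mice Car1, Slc4a4 and Scnn1a fell, 3 of 10 against 33.1% of all genes called and 8.56% called lower. At 8 weeks edgeR called 0 of the 10, against 0.0675% of all genes (1146 genes at an unadjusted p under 0.05), while DESeq2 called 1, Car1, against 1.4%. Between Il10KO and wild type at week 6, 0 of the 10 were called by edgeR and by DESeq2, against 0% and 0.161% of all genes (394 at an unadjusted p under 0.05 in edgeR). Between week 12 and week 10 neither tool called any of the 10, against 0.448% of all genes in edgeR (2375 at an unadjusted p under 0.05) and 5.18% in DESeq2. The median change of the 10 genes was -1.22 at 10 weeks, -0.86 at 12 weeks and -1.33 at 14 weeks, against 0.02, 0.00 and -0.06 for all genes. Across the 5 ages of Il10KO, edgeR called Car1 (adjusted p = 0.00636), Slc4a4 (0.0328), Slc9a3 (0.0379) and Cftr (0.0424), where 27.4% of all genes were called.

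**Figure D1:**
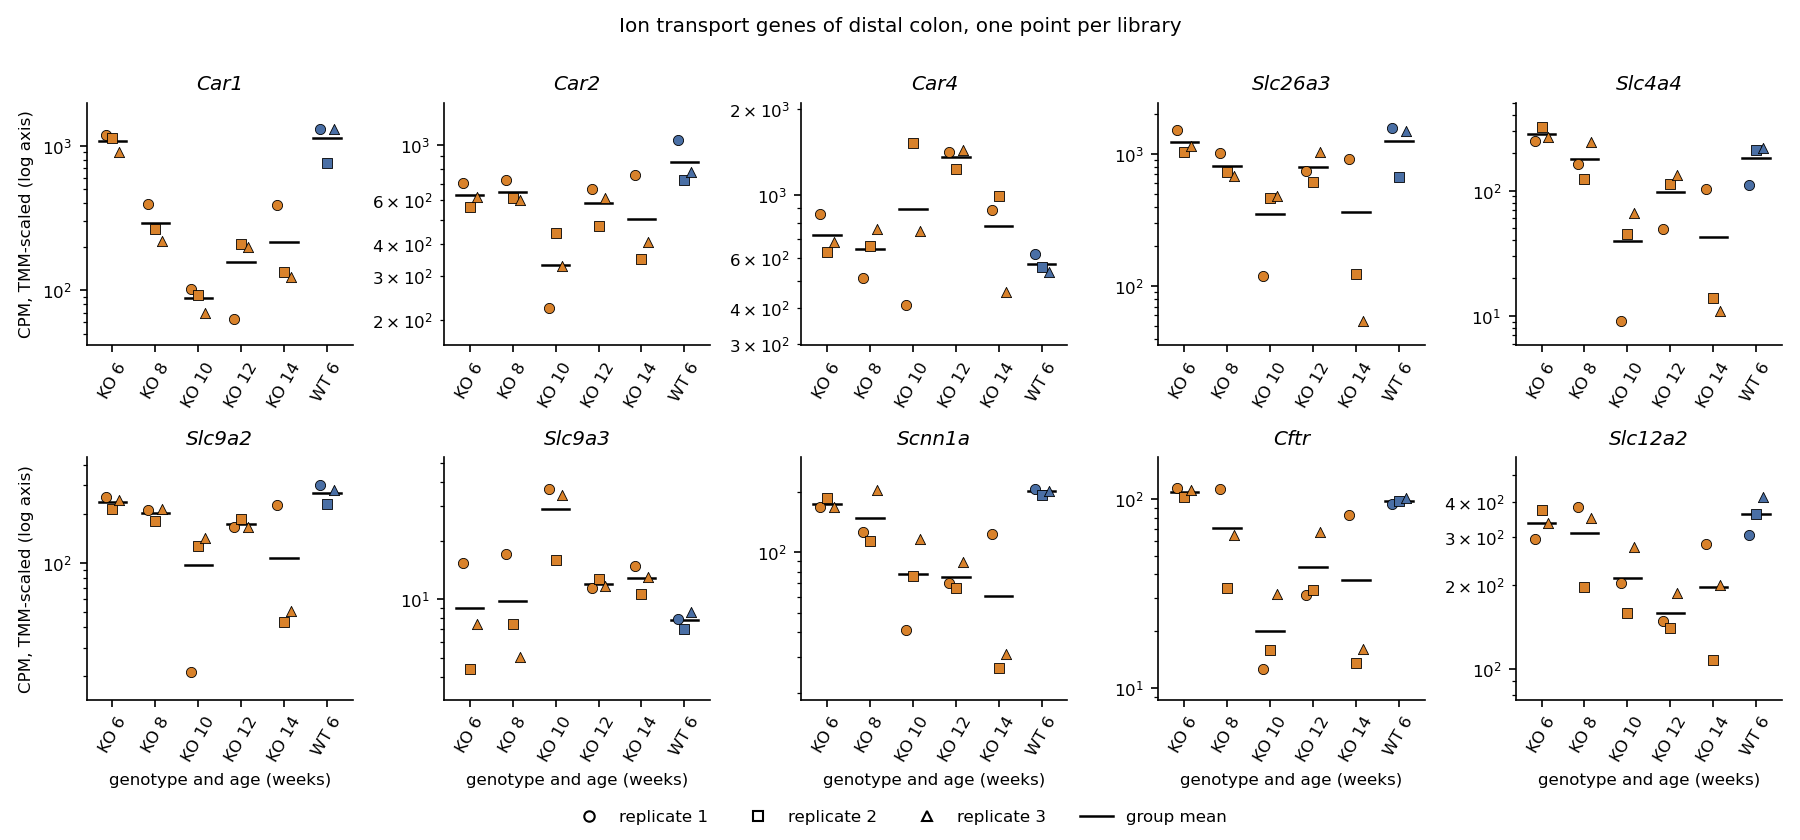
Level of each of the 10 genes in CPM (log axis) by genotype and age in weeks, with 1 symbol per library and a line at the group mean of 3. Car1 lies below week 6 in all 3 libraries of week 8, replicates 2 and 3 of week 14 lie apart from replicate 1 for Slc26a3, Slc4a4, Slc9a2, Scnn1a and Cftr, and Slc9a3 alone is highest at week 10.

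Of the 10 genes, 5 have an entry in the RefSeq promoter table of GRCm38.p6, and 3 are printed because they contrast with each other in CPM. For the apical exchanger Slc26a3 and the channel Cftr the week 10 libraries all lay below week 6. For the sodium/proton exchanger Slc9a3 they all lay above it. Each is the 250 bases before a RefSeq start on the forward strand (for Slc26a3 the start of Slc26a3-201, which made up at least 94.5% of the gene's TPM in every library), Slc26a3 at chr12:31437969-31438218, Cftr at chr6:18170437-18170686 and Slc9a3 at chr13:74121163-74121412. Capitals mark matches to GTTAAT (the core bound by HNF1 factors), TATAAA (the TATA box) or GGGCGG (the GC box) on either strand.
Slc26a3: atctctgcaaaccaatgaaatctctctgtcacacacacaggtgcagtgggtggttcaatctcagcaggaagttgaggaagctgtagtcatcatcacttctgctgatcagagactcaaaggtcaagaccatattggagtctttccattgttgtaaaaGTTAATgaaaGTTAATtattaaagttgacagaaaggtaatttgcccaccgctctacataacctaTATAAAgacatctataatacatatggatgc
Cftr: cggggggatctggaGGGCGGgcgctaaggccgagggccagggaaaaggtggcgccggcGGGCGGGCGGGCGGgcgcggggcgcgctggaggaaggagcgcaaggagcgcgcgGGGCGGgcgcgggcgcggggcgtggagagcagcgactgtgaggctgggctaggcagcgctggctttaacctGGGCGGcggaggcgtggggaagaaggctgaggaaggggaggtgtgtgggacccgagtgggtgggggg
Slc9a3: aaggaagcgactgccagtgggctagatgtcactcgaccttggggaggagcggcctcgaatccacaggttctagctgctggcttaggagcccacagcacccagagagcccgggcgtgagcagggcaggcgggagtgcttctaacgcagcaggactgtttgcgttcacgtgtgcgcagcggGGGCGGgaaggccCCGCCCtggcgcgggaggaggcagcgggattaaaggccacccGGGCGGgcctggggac
The Slc26a3 window had a GC content of 38.8%, with GTTAAT at 78 and 88 bases and TATAAA at 24 bases before the start. The Cftr window had a GC content of 76.4% and 6 GC boxes, of which 3 overlap each other, and the Slc9a3 window 67.6% and 3 GC boxes. Over the 32851 promoters of the table the median GC content was 52.4%, and 6.43% held GTTAAT, 12.4% TATAAA and 32.7% GGGCGG. The HNF4 letters CAAAGTNCA, in 1.19% of all promoters, matched none of these 3 windows on either strand. Nor did the CDX core TTTATG, in 10.8%, the letters AGATAAG of zinc finger factors, in 2.74%, or the cyclic AMP response core TGACG, in 17.8%. The Slc26a3 window does hold caaaggtca, which differs from the HNF4 letters at a single base. Such near matches were not counted in the other promoters. These matches describe letters, not binding.

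Among the carbonic anhydrases Car1 changed most. Car1 (chromosome 3, 14766216 to 14808368, reverse strand, GRCm38) encodes the cytosolic carbonic anhydrase of colonocytes and also of red blood cells. In Il10KO mice Car1 measured 1192, 1123 and 907 CPM at week 6, 396, 264.5 and 219 CPM at week 8 and 102, 92.1 and 69.7 CPM at week 10. The 12-week mice had 62.8, 209 and 198 CPM and the 14-week mice 387, 134 and 123 CPM, against 1310, 763 and 1297 CPM in wild-type mice. Every library from week 8 on was thus below every 6-week library of either genotype. The change from week 6 was -1.87 ± 0.48 at week 8, which did not pass (edgeR, adjusted p = 0.18), and -3.61 ± 0.51 at week 10 (adjusted p = 0.0018). Car1 fell by 2.78 ± 0.50 on the log2 scale at week 12 (edgeR, adjusted p = 0.0254) and by 2.32 ± 0.49 at week 14 (adjusted p = 0.00616). The week 10 call held without any single library (edgeR, adjusted p at most 0.00822), as did that of week 14 (at most 0.0361), but week 14 was not called without both libraries of low RIN, at -1.48 (adjusted p = 1). The week 12 call was lost without any single library of week 6 or week 12, with changes of -3.04 to -2.40 and edgeR adjusted p of 0.054 to 0.144. Within cage B the Il10KO libraries of weeks 6, 8, 10 and 12 measured 1123, 396, 102 and 209 CPM, within cage A those of weeks 6, 12 and 14 measured 1192, 62.8 and 387 CPM, and within cage F those of weeks 6 and 10 measured 907 and 69.7 CPM. Cages C and E held no 6-week mouse. With cage as a factor the week 10 change was -3.42 and no longer passed (edgeR, adjusted p = 0.106).

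Red blood cell markers moved with Car1 in part. The summed level of their 8 detected genes was 223.6 to 667.7 CPM at week 6 of Il10KO, 48.55 to 185.6 CPM at week 8 and 68.4 to 183.6 CPM at week 10, against 95.5 to 126.9 CPM in the wild type. At week 10, 3 of the 8 fell (Hba-a1, Hba-a2 and Alas2) and none rose, against 9.48% and 14.6% of all genes. Against week 6 their median change was -1.18 at week 12 and 0.43 at week 14, with 0 of 8 called at either age. Car1 was at -2.78 and -2.32 at these ages. The wild-type mice, all of cage G, had Car1 at 1194 to 2007 TPM, against 1449 to 1917 TPM at week 6 of Il10KO. The part of red blood cells in the Car1 change was not tested.

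Car2 (chromosome 3, 14886273 to 14900770, forward strand) encodes the fast cytosolic isoform. Car2 measured 222, 444 and 327 CPM at week 10 of Il10KO, against 707, 565 and 619 CPM at week 6, with no overlap. The change was -0.93 ± 0.31 (edgeR, adjusted p = 0.0407), a call that was lost without any one of the week 6 libraries, replicate 1 or 3 of week 10 or of week 12, or wild-type replicate 2 or 3 (adjusted p = 0.0508 to 0.165), with the smallest change, -0.71, without week 10 replicate 1. At week 12 Car2 measured 668.5, 475 and 612 CPM, above each week 10 library. The difference between week 12 and week 10, 0.82 ± 0.30, did not pass (edgeR, adjusted p = 0.223). In the other groups Car2 lay at 604 to 723 CPM at week 8 and at 351 to 757 CPM at week 14 of Il10KO and at 726 to 1048 CPM in the wild type.

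Car4 (chromosome 11, 84957786 to 84966044, forward strand) encodes the membrane-anchored isoform of the apical surface. It was the one carbonic anhydrase of the set without a lower call at any age. Car4 measured 1418, 1238 and 1436 CPM at week 12 of Il10KO, against 854, 628 and 684.5 CPM at week 6. These groups did not overlap in CPM, but the change of 0.92 ± 0.38 did not pass in edgeR (adjusted p = 0.127). In TPM they did overlap, at 1170 to 1573 at week 12 and 884 to 1276 at week 6. The change was 0.33 in limma on log2(TPM + 1) (adjusted p = 0.603). The spread was widest at week 10, with 411, 1520 and 746 CPM. Car4 lay at 512 to 759 CPM at week 8 and 457 to 989 CPM at week 14 of Il10KO and at 538 to 619 CPM in the wild type.

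The make-up of the summed carbonic anhydrase transcripts shifted accordingly. Of the summed TPM of Car1, Car2 and Car4, Car1 made up 50.5 ± 3.8%, 22.8 ± 6.8%, 9.22 ± 5.26%, 8.83 ± 4.73% and 15.7 ± 7.1% in Il10KO mice of 6, 8, 10, 12 and 14 weeks in that order, against 51.3 ± 6.5% in wild-type mice (SD, n = 3 each). The highest share from week 8 on was 30.3%, below the lowest 6-week share of 44.4%. Each of the 4 later ages gave a two-sided exact permutation p of 0.1 against week 6, the smallest that 3 against 3 allow. Car4 had the highest TPM of the 3 from week 8 on, with a share of 72.2 ± 7.6% at week 10. Car2 kept a share of 14.5% to 33.2% in every library.

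**Figure D2:**
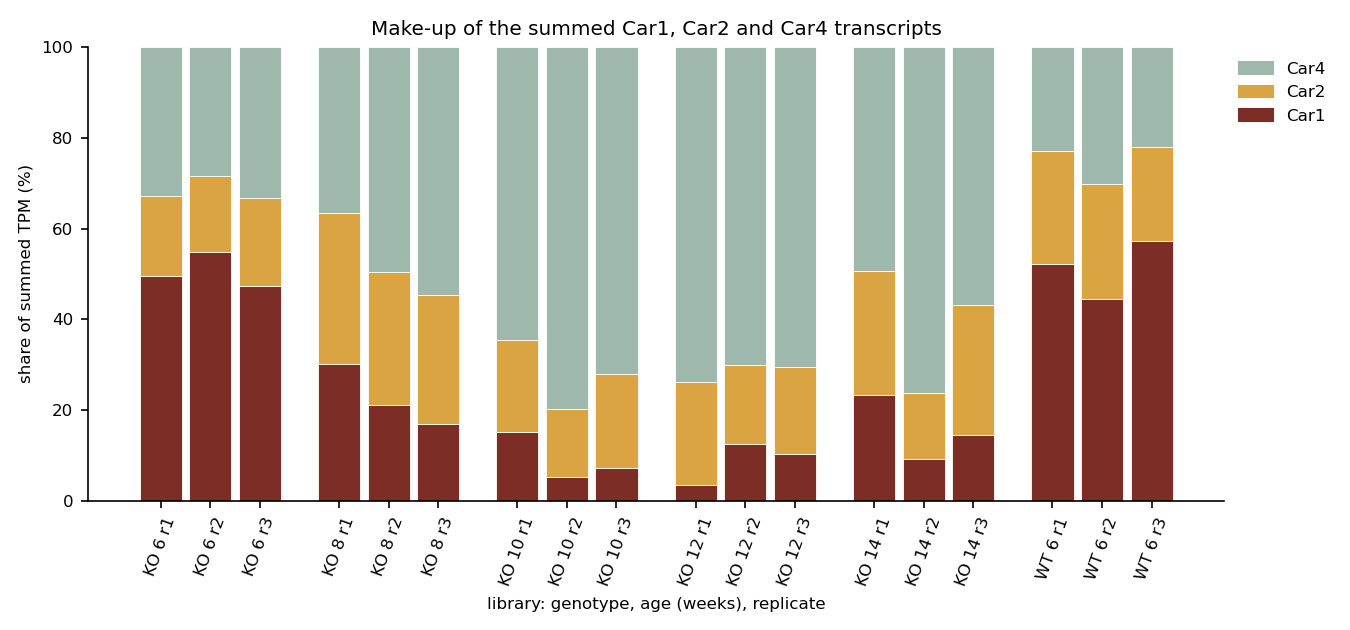
Share in percent of the summed TPM of Car1, Car2 and Car4 that each gene makes up, with 1 stacked bar per library. Car1 takes 44.4% to 57.3% in the 6-week libraries of both genotypes and at most 30.3% in the 12 later ones, where Car4 takes most of the rest.

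Both bicarbonate carriers were lowest in the same 3 libraries, replicate 1 of week 10 and replicates 2 and 3 of week 14. Slc26a3 (chromosome 12, 31390871 to 31473917, forward strand), the apical exchanger of chloride for bicarbonate, is mutated in congenital chloride diarrhoea in humans. In Il10KO mice Slc26a3 measured 1510, 1033 and 1157 CPM at week 6, 1008, 730 and 680.2 CPM at week 8 and 119, 465 and 479 CPM at week 10. The 12-week mice had 743, 608 and 1037 CPM and the 14-week mice 918, 123 and 54.9 CPM, against 1583, 669 and 1502 CPM in wild-type mice. In CPM weeks 8, 10 and 14 did not overlap week 6 of Il10KO, and week 14 held both the lowest library and 1 library close to week 6. The changes of -1.80 ± 0.77 at week 10 and -1.76 ± 0.77 at week 14 did not pass (edgeR, adjusted p = 0.0871 and 0.0778). Without week 14 replicate 1, the week 14 change was -3.80 (edgeR, adjusted p = 5.16e-05) and that of week 10 passed at -1.80 (adjusted p = 0.00556). That omission leaves at week 14 the 2 libraries of low RIN. The week 14 change was -1.34 without replicate 2 and -1.25 without replicate 3 (edgeR, adjusted p = 0.251 and 0.222). It was -0.43 without both (edgeR, adjusted p = 1) and -0.72 with RIN as a covariate (adjusted p = 0.959).

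Slc4a4 (chromosome 5, 88886818 to 89239653, forward strand) encodes the sodium bicarbonate cotransporter of the basolateral membrane, which brings bicarbonate into the cell. Slc4a4 measured 250, 323 and 270 CPM at week 6 of Il10KO, 162, 124 and 246 CPM at week 8 and 9.03, 44.7 and 65.8 CPM at week 10. The 12-week mice had 49.2, 113 and 132 CPM and the 14-week mice 102, 14.0 and 11.0 CPM, against 110.1, 212 and 218 CPM in wild-type mice. Every Il10KO library from week 8 on lay below all 3 of week 6, and the wild type lay below them too. Slc4a4 fell by 2.82 ± 0.79 on the log2 scale at week 10 (edgeR, adjusted p = 0.0247) and by 2.73 ± 0.79 at week 14 (adjusted p = 0.0189). The week 10 call was lost without any single library of week 6 or without replicate 1 or 2 of week 10, with edgeR adjusted p of 0.0575 to 0.088 and changes of -2.91 to -2.35. The week 14 call was lost without replicate 2 of week 6 (edgeR, adjusted p = 0.0502) or without replicate 2 or 3 of week 14 (adjusted p = 0.0872 and 0.0785), and without both the change was -1.46. Transcripts from the upstream start, of which Slc4a4-207 was the main one, made up at least 91.8% of the gene's TPM in every library.

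Of the sodium/proton exchangers, Slc9a3 rose at week 10 and Slc9a2 was not called at any age. Slc9a3 (chromosome 13, 74121457 to 74169442, forward strand), the regulated apical exchanger NHE3, was the least abundant of the 10 genes at week 6. It measured 37.1, 15.9 and 34.3 CPM at week 10 of Il10KO, against 15.3, 4.39 and 7.46 CPM at week 6. The groups did not overlap in CPM, though the lowest week 10 and the highest week 6 library nearly met. In TPM they did overlap, at 2.957 to 9.605 at week 10 and 1.643 to 5.518 at week 6. Slc9a3 rose by 1.68 ± 0.46 (edgeR, adjusted p = 0.0229), a call that was lost without replicate 2 or 3 of week 6 or replicate 1 of week 10 (adjusted p = 0.0819, 0.0787 and 0.0878). It was also lost where libraries were scaled on the epithelial markers (1.45, adjusted p = 0.0728) or where the deposited TPM was tested in limma (0.80 on log2(TPM + 1), adjusted p = 0.191). Slc9a3 was at 11.5, 12.8 and 11.8 CPM at week 12, below each week 10 library, and the difference of -1.28 ± 0.46 did not pass (edgeR, adjusted p = 0.207). It lay at 5.03 to 17.03 CPM at week 8 and 10.6 to 14.8 CPM at week 14 of Il10KO and at 7.03 to 8.64 CPM in the wild type. A non-coding processed transcript, Slc9a3-202, took 11.1 ± 3.6% of the gene's TPM at week 10 and 21.3 ± 5.2% at week 6 of Il10KO (SD, n = 3 each). These shares rested on 9, 2 and 9.4 estimated counts at week 10 and on 7, 3 and 3 at week 6, too few to compare the ages.

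Slc9a2 (chromosome 1, 40680574 to 40769273, forward strand) encodes the apical exchanger NHE2. It measured 21.2, 128 and 141 CPM at week 10 of Il10KO, against 254, 214 and 242 CPM at week 6. Replicate 1 of week 10 was far below the other 2, as it was for Slc26a3 and Slc4a4. The change of -1.29 ± 0.60 did not pass (edgeR, adjusted p = 0.108), and without that library it was -0.82. At week 14 Slc9a2 measured 227, 42.9 and 50.7 CPM, with replicate 1 inside the range of week 6. It lay at 181.5 to 214 CPM at week 8 and 166 to 186 CPM at week 12 of Il10KO and at 229 to 300.2 CPM in the wild type.

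Scnn1a (chromosome 6, 125320659 to 125344943, forward strand) encodes the alpha subunit of the epithelial sodium channel, the subunit that the channel needs to open. In Il10KO mice Scnn1a measured 167, 186 and 167 CPM at week 6, 125, 114 and 203 CPM at week 8 and 40.8, 76.2 and 117 CPM at week 10. The 12-week mice had 70.2, 66.6 and 89.7 CPM and the 14-week mice 123, 26.5 and 31.2 CPM, against 205, 193 and 202 CPM in wild-type mice. Weeks 10, 12 and 14 lay wholly below week 6 of both genotypes. Scnn1a fell by 1.52 ± 0.49 on the log2 scale at week 14 (edgeR, adjusted p = 0.0292), while its changes of -1.16 ± 0.48 at week 10 and -1.20 ± 0.48 at week 12 did not pass (adjusted p = 0.0824 and 0.121). The week 14 call was lost without any single library of week 6 (edgeR, adjusted p = 0.0623 to 0.0716) and without replicate 2 or 3 of week 14 (adjusted p = 0.127 and 0.133), and without both the change was -0.50. The isoform Scnn1a-207 took 8.61%, 21.5% and 11.7% of the gene's TPM in the 6-week Il10KO libraries, against 0%, 0.98% and 1.2% in those of the wild type. It was at 0% in replicate 2 of week 8, replicate 1 of week 10, replicates 1 and 2 of week 12 and replicates 2 and 3 of week 14, and the division of reads between overlapping isoforms is an estimate of the quantifier.

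Chloride secretion was represented by its exit and entry steps. Cftr (chromosome 6, 18170687 to 18322768, forward strand) is the apical anion channel mutated in cystic fibrosis. In Il10KO mice Cftr measured 115, 103 and 112 CPM at week 6, 113, 34.1 and 64.8 CPM at week 8 and 12.57, 16.01 and 31.43 CPM at week 10. The 12-week mice had 31.2, 33.3 and 66.9 CPM and the 14-week mice 83.0, 13.6 and 16.1 CPM, against 94.0, 98.3 and 101 CPM in wild-type mice. From week 10 on, every library lay below all 6 of week 6. Cftr fell by 2.46 ± 0.62 on the log2 scale at week 10 (edgeR, adjusted p = 0.0169), a call that was lost without replicate 1 of week 6 or replicate 1 or 2 of week 10 (adjusted p = 0.0548, 0.0755 and 0.0567). The changes of -1.33 ± 0.60 at week 12 and -1.55 ± 0.60 at week 14 did not pass (edgeR, adjusted p = 0.144 and 0.0571). The week 14 change was -2.89 without replicate 1 of that age (edgeR, adjusted p = 0.000106) and -0.41 without both libraries of low RIN (adjusted p = 1). Without replicate 1 of week 14 the week 12 change also passed, at an unaltered -1.33 (edgeR, adjusted p = 0.0167).

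Slc12a2 (chromosome 18, 57878678 to 57946821, forward strand) encodes NKCC1, the basolateral cotransporter that loads chloride for secretion. It measured 148.5, 139.7 and 188 CPM at week 12 of Il10KO, against 294, 376 and 336 CPM at week 6. The groups did not overlap, and the change of -1.08 ± 0.33 did not pass in edgeR (adjusted p = 0.0861) but did in DESeq2 (-1.09, adjusted p = 0.0183), which called 15.5% of all genes there. Slc12a2 was at 203, 159 and 275 CPM at week 10 and at 283, 107 and 199.9 CPM at week 14, where the change of -0.77 ± 0.33 did not pass (edgeR, adjusted p = 0.0745). That change passed at -1.13 without replicate 1 of week 14 (edgeR, adjusted p = 0.00594), and was -0.47 without replicate 2 (adjusted p = 0.277) and -0.25 without both libraries of low RIN (adjusted p = 1). It lay at 197 to 383 CPM at week 8 of Il10KO and 305 to 417 CPM in the wild type.

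**Figure D3:**
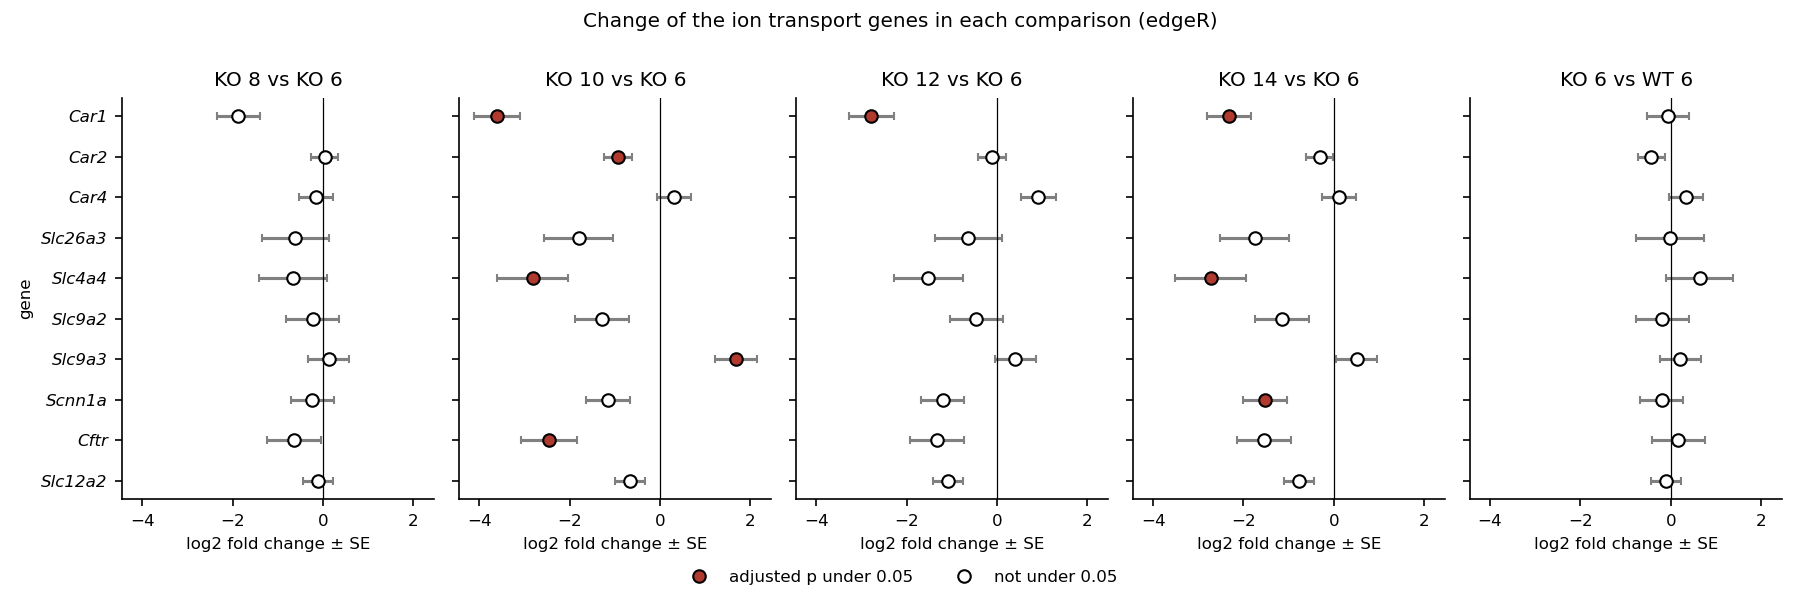
Log2 fold change ± SE (edgeR, n = 3 in each group) of the 10 genes for each later age of Il10KO against week 6 and for Il10KO against wild type at week 6, with filled points where the adjusted p was under 0.05. The panels of weeks 8, 10, 12 and 14 hold 0, 5, 1 and 3 filled points, and that against the wild type holds 0.

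Ranges of CPM separated the groups more often than the test called them. At week 10, 8 of the 10 genes were lower and 1 was higher without overlap with week 6, where 30.3% of all tested genes were lower and 27.5% higher in this way. At week 12 the counts were 6 lower and 1 higher, against 32.9% and 32.8% of all genes, and at week 14, 6 lower and 0 higher, against 21.5% and 19.2%. At week 8, Car1, Slc26a3 and Slc4a4 were lower without overlap, against 12.8% of all genes. At week 6, Car2 and Scnn1a were lower and Car4, Slc4a4 and Cftr higher in Il10KO than in wild type without overlap, against 13.1% and 12.3% of all genes. Unadjusted p at week 6 between genotypes was at least 0.173 for all 10 genes and under 0.05 for 394 of all genes.

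Per transcript length, the order of levels also changed with age. At week 6 of Il10KO the mean TPM was 1689 for Car1, 1059 for Car4, 663 for Slc26a3 and 601 for Car2. A lower tier held Scnn1a at 77.9 TPM, Slc12a2 at 74.9, Slc9a2 at 70.5 and Slc4a4 at 53.6, followed by Cftr at 25.6 and Slc9a3 at 3.30. Neighbours in this order overlapped in range for Slc26a3 and Car2, for Scnn1a and Slc12a2 and for Slc12a2 and Slc9a2. At week 10 Car4 led at 895 TPM, ahead of Car2 at 215, Slc26a3 at 135 and Car1 at 91.6, and Slc9a3 at 6.54 TPM stood level with Slc4a4 at 5.6, with overlapping ranges. In the wild type Car1 led at 1726 TPM, followed by Car4 at 815, Car2 at 785 and Slc26a3 at 649.9 TPM, and the lower 6 genes stood in the same order as at week 6 of Il10KO.

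Replicates 2 and 3 of week 14, the libraries of low RIN, differed from replicate 1 by transcript length over all genes. In these 2 libraries the median difference from week 6 was 2.51 for genes with transcripts under 1 kb and -2.23 for those over 6 kb. In replicate 1 of week 14 the corresponding medians were 0.16 and -0.20. Medians also differed by length in libraries of high RIN, by less: in replicate 1 of week 10, with a RIN of 8.5, the medians were 1.17 and -1.22, in replicates 2 and 3 of that age 0.78 and -0.81, and at week 12 1.08 and -0.88. Replicate 1 was also the week 10 library in which Slc26a3, Slc4a4, Slc9a2, Scnn1a, Cftr, Car2 and Car4 were lowest. Car1 and Slc12a2 were lowest in other libraries of that age. Slc9a3 was highest in replicate 1 in CPM, but in TPM it was highest in replicate 3, at 9.605 against 7.046. In replicate 1 of week 10 Car2 lay at -1.50 and Car4 at -0.80, against a median of 0.59 for genes of 1 to 2 kb. The transcripts of Cftr (6.29 kb), Slc12a2 (6.52 kb) and Slc4a4 (7.73 kb) are among the long ones, and those of Car1 (1.18 kb), Car4 (1.25 kb) and Car2 (1.76 kb) among the short ones.

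Set against genes of like length, Car1 and Slc26a3 lay far from the median of their class in the low-RIN libraries, and Cftr nearer to it. Relative to the median of its length class Car1 was at -4.12 in replicates 2 and 3 of week 10, -3.39 at week 12 and -4.03 in replicates 2 and 3 of week 14. Slc26a3 in the last 2 libraries lay at -3.89, against a class median of -0.13. Cftr in them lay at -2.89, against -2.23, and Slc12a2 at -1.19 was above that median. Slc4a4, of the same class, lay at -4.48 in these 2 libraries. Scnn1a lay at -2.59 there, against -0.85, and Slc9a2 at -2.34, against -1.42. Car2 at -0.72 and Car4 at -0.09 were below their class median of 0.98. At week 12 Cftr was at -1.42 and Slc12a2 at -1.08, against -0.88 for genes over 6 kb, and in replicates 2 and 3 of week 10 Cftr was at -2.29 and Slc4a4 at -2.36, against -0.81. Slc9a3 (4.14 kb) lay above its class median in each of these sets of libraries. The part of length in the changes was not tested. With RIN as a covariate none of the 10 was called at week 14, against 0% of all genes, and 8 were at week 10, against 46.5%.

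**Figure D4:**
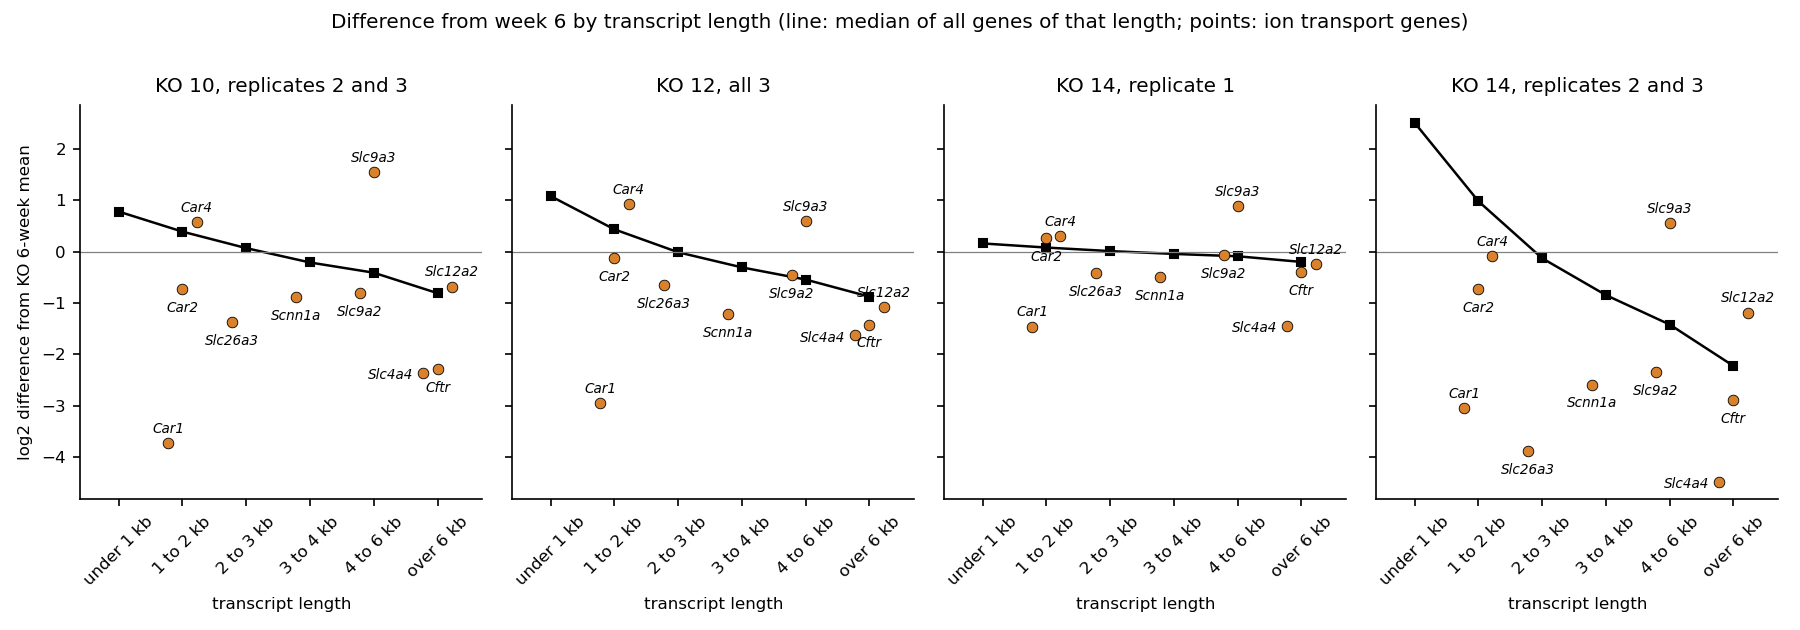
Log2 difference from the 6-week Il10KO mean by transcript length class, as the median of all genes of that class (line) and as the 10 ion transport genes (points), in 4 sets of libraries. The line runs from 2.51 to -2.23 in the 2 week 14 libraries of low RIN and from 0.16 to -0.20 in replicate 1 of that age, and Car1 lies far below it in each panel. Points of 1 class are set side by side so that they do not hide each other.

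Other genes of the pathway changed beside the 10, in both directions. Among 11 other carbonic anhydrases tested at week 10, Car3 fell by 3.81 ± 1.25 and Car7 by 1.73 ± 0.55 on the log2 scale, and Car13, a cytosolic isoform, rose by 1.18 ± 0.37 (edgeR, adjusted p = 0.0398, 0.0363 and 0.0339). Car3 is chiefly an enzyme of muscle and fat. Among 16 other bicarbonate, chloride and sulfate transporters 2 fell and none rose. Best2, a bicarbonate channel of colonic goblet cells, fell by 1.87 ± 0.64 (edgeR, adjusted p = 0.0467). Best2 measured 3.84, 33.3 and 46.7 CPM at week 10, against 98.3, 103 and 105 CPM at week 6 of Il10KO. For these lists the shares to compare are again 9.48% of all genes lower and 14.6% higher.

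Of 14 other genes listed for sodium entry and exit, 2 fell at week 10 and 1 rose, a proton/potassium pump. Scnn1b, the beta subunit of the epithelial sodium channel, fell by 1.89 ± 0.55 (edgeR, adjusted p = 0.0272), with 2.27, 6.11 and 9.72 CPM at week 10, against 18.1, 30.1 and 19.1 CPM at week 6 of Il10KO. Scnn1g, the gamma subunit, was at 3.00 to 4.55 CPM at week 10, against 4.41 to 8.41 CPM at week 6, and was not called. Atp12a, the colonic proton/potassium pump, rose by 1.71 ± 0.34 (edgeR, adjusted p = 0.00673), with 735.5, 901 and 1261 CPM at week 10, against 263, 341 and 280.2 CPM at week 6. In the wild type it was at 369 to 681 CPM.

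Of 24 regulators and scaffolds of ion transport, 7 fell and 1 rose at week 10, against 9.48% and 14.6% of all genes. Sgk2, a kinase related to the sodium channel activator Sgk1, rose by 2.82 ± 0.42 (edgeR, adjusted p = 0.00209), with 89.6, 105 and 87.9 CPM at week 10, against 11.5, 17.1 and 11.6 CPM at week 6. Wnk4, a kinase that controls chloride cotransporters, fell by 2.39 ± 0.82 and Guca2a, the hormone guanylin that stimulates Cftr, by 2.34 ± 0.44 (edgeR, adjusted p = 0.0474 and 0.00493). The other 5 that fell were Slc9a3r2, Ahcyl2, Sgk1, Prss8 and Cap2, of which Cap2 encodes an actin-binding protein and not a transport regulator. Sgk2 was also called at week 12, at 2.15 ± 0.41 (edgeR, adjusted p = 0.0304), the single call among the ion transport lists at that age. Of 4 genes listed for short-chain fatty acid uptake, Slc16a1 (MCT1) fell by 1.53 ± 0.36 and Slc16a3 (MCT4) rose by 2.08 ± 0.51 at week 10 (edgeR, adjusted p = 0.0132 and 0.0149). The list name does not say what either carries in these biopsies, and uptake was not measured.

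At week 14, 5 of the 16 anion transporters fell and none rose, against 8.56% and 24.5% of all genes, and the sodium list had 3 lower and 2 higher of 14. With the epithelial markers held equal, 2 of the 16 were lower and none higher, and the sodium list had 1 lower and 1 higher, against 3.45% lower and 20.8% higher of all genes. Examples are Slc4a8, a sodium-driven chloride bicarbonate exchanger with at most 2.24 CPM in the libraries compared, at -1.84 ± 0.64, Scnn1b at -1.59 ± 0.54 and Fxyd3, a sodium pump regulator, at 2.22 ± 0.50 (edgeR, adjusted p = 0.0392, 0.0374 and 0.00652). Of 5 potassium channel genes 1 was higher and 1 lower at week 14, with a median change of -1.22. Kcne3, the beta subunit of the basolateral potassium channel of crypt cells, rose by 2.27 ± 0.47 (edgeR, adjusted p = 0.00616). It measured 99.3, 432 and 297 CPM at week 14, against 58.2, 67.6 and 45.8 CPM at week 6. Kcnk5, a potassium channel of the tandem-pore family, fell by 1.31 ± 0.44 (edgeR, adjusted p = 0.0344). Of the other lists at that age, the carbonic anhydrases had 2 higher of 11 (Car8 and Car13), the regulators 1 higher (Sgk2) and 2 lower (Ahcyl2 and Prss8) of 24 and fatty acid uptake the same 2 calls as at week 10. Fxyd3 was at 16.8 CPM in replicate 1 of week 14, inside the 16.1 to 17.8 CPM of week 6, and at 119 and 101 CPM in replicates 2 and 3. The calls of this age include both low-RIN libraries.

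Markers of cell types moved with these groups to different degrees. Epithelial structure markers had a median change of 0.03 at week 10, with 2 of 12 called, both higher. The changes of the 12 were positive for 6 and negative for 6. One of the 2 called was Krt20, a keratin of mature surface colonocytes. Krt20 was at 1285, 1199 and 1337 CPM at week 10, against 242, 393 and 394 CPM at week 6. The level of this single marker does not show how many mature colonocytes were present. Neutrophil markers summed to 6015, 983 and 635 CPM at week 10 and 192, 16820 and 11690 CPM at week 14, against 160.1, 198 and 180.2 CPM at week 6 of Il10KO. The libraries with the highest neutrophil markers, replicates 2 and 3 of week 14 and replicate 1 of week 10, were the 3 in which Slc26a3, Slc4a4, Slc9a2 and Scnn1a were lowest. Cftr was as low in replicate 2 of week 10. For Car1, Car2, Car4, Slc9a3 and Slc12a2 the 3 lowest libraries were not these. Replicates 2 and 3 of week 14 had a low RIN (6.5 and 5.8). Their median difference from week 6 was 2.51 for genes under 1 kb and -2.23 for those over 6 kb. In replicate 1 of week 10 the medians were 1.17 and -1.22. The part of RIN and transcript length in this pattern was not tested. Of the neutrophil list 6 of 8 rose at week 10, against 14.6% of all genes, and 7 of 8 at week 14, against 24.5%. Replicate 1 of week 14, at 192 CPM, lay inside the range of week 6. Goblet cell markers summed to 2938 to 8312 CPM at week 10, against 9742 to 11760 CPM at week 6, with 0 of 7 called. Smooth muscle markers summed to 1326 to 5403 CPM at week 10, against 6328 to 7088 CPM at week 6, with 0 of 8 called. Markers of enteric neurons and glia summed to 21.3 to 37.3 CPM at week 10, against 65.8 to 66.9 CPM at week 6, with 4 of 9 lower (Elavl4, Ret, Uchl1 and Sox10) and a median change of -1.39, beside -1.22 for the 10 transport genes. Fat markers had 1 of 5 lower (Plin1), with a median change of -2.10. Leukocyte markers had 2 of 8 higher (Cd3e and Cd8a) and a median change of 1.16. Markers of crypt base and dividing cells had 3 of 10 higher (Olfm4, Cdk1 and Birc5) and a median of 0.00, but 2 higher and 2 lower with the epithelial markers held equal. Where libraries were scaled to hold the epithelial markers equal, which moved the median change of all genes to -0.16 at week 10 and -0.30 at week 8, Car1, Car2, Slc4a4 and Cftr kept their calls at week 10 and Scnn1a was called lower too. Of all genes 9.89% were then lower and 7.53% higher, where TMM gave 9.48% and 14.6%. The part of cell composition in the changes was not tested.

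Lipocalin was then set against each gene within ages. Its gene, Lcn2, measured 112.8, 55.2 and 30.9 CPM at week 10, against 1.87, 0.51 and 0.75 CPM at week 6 of Il10KO. The transcript did not follow the lipocalin label across later ages. Mean Lcn2 was 93.2 TPM at week 10, 8.50 at week 12 and 35.8 at week 14. Lipocalin was 340 to 554, 444 to 2574 and 2044 to 4289 ng/g at these ages. In the 15 Il10KO libraries, with age as a factor, no member was called on log10 lipocalin, and 0% of 16182 genes were (edgeR, with 117 genes at an unadjusted p under 0.05; the count of members called was 0 in DESeq2 too). Slc4a4 had the lowest p of the 10, with a slope of -3.07 ± 1.41 on the log2 scale per 10-fold lipocalin (edgeR, adjusted p = 0.888). Without single libraries this slope ran from -6.37 to -1.57.

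The genes most like each of 4 members in their course over the 18 libraries were found by the root mean square distance between centred log2 CPM, over 12725 genes. For Car1 they were Fam20c at 0.51, Rassf9 at 0.68 and Slc35e3 at 0.70, against a median distance of 1.53. For Slc26a3 they were Chd3 at 0.39, Zbtb4 at 0.41 and Abat at 0.42, against 1.35. Scnn1a was closest to Spata13 at 0.16, Vwa8 at 0.19 and Eef2k at 0.20, against 0.96, and Cftr to Klf12 at 0.19, Ror1 at 0.22 and Arhgef28 at 0.23, against 1.18. Among the 10 themselves the closest pair was Scnn1a and Slc9a2, at 0.50. Car1 was less closely matched than the other 3.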

How the data were processed

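Per the labels, polyadenylated RNA of distal colon biopsies was sequenced from paired ends. Per the submitters' processing notes kallisto, FastQC and mm10 were used, and versions and the annotation release are not given in the sources used here. The authors deposited estimated counts, also called expected counts, and TPM per gene and per transcript. Estimated counts were rounded to whole numbers. Groups came from the labels. Genes were filtered with filterByExpr, scaled by TMM and tested with the quasi-likelihood F-test of edgeR 4.0.16 in R 4.3.3, over 6 group means, with Benjamini-Hochberg adjustment over 16300 genes and an adjusted p of 0.05 as the threshold. The SE is the log2 fold change divided by the square root of F. DESeq2 1.42.0 and limma 3.58.1 (on the deposited TPM with a pseudocount of 1 or 0.1, and as voom with a weight per group) were alternatives. The fits were also run on simulated counts. These held no effect of length, RIN or cage, and no result here rests on them. Transcripts were named from GENCODE vM21 (GRCm38), which held 97.7% of 119414. The length analysis took genes in classes of transcript length.

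The members and the lists of other genes were chosen with earlier results of these data known. Named were the 10 members, for each ion transport list the 3 called genes with the largest change, the 2 highest genes or the summed level of marker lists, Lcn2, and the 3 genes closest to Car1, Slc26a3, Scnn1a and Cftr among those with a mean log2 CPM of at least 1. Of the genes this rule names, 2 are not reported here. Slc9a3r2, Sgk1, Ahcyl2, Prss8 and Cap2, the called marker genes and Scnn1g were named after their values were seen. The 2 highest genes were Krt8 and Lgals4 of the epithelial, S100a8 and S100a9 of the neutrophil, Hbb-bs and Hba-a2 of the red blood cell and Tagln and Acta2 of the smooth muscle list. No 2 libraries held identical values.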

Additional observations from a re-analysis of the deposited data

How the results depend on the processing

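No called value changed sign under any alternative. The number of the 10 genes called by the edgeR design (0, 5, 1 and 3 for weeks 8, 10, 12 and 14, and 4 across ages) stayed within 1.5-fold with RLE factors, no filter or a stricter filter. At week 8 it was 1 with DESeq2, without the 2 libraries of low RIN or with RIN as a covariate, and 0 to 1 without single libraries. At week 10 it was 3 with limma on either pseudocount, 8 with voom, 9 without the low-RIN libraries, 8 with RIN, 0 with cage, and 1 (without replicate 1 of week 10) to 8 (without replicate 1 of week 14). At week 12 it was 2 with DESeq2, 6 with voom, 8 with the 2 compared groups alone, 5 without the low-RIN libraries, 5 with RIN, 0 with cage and 0 to 5 without single libraries. At week 14 it was 8 with limma on either pseudocount, 1 with voom, 0 with the compared groups alone, without the low-RIN libraries, with RIN or with cage, and 1 to 8 without single libraries. Between weeks 12 and 10 it was 0 to 1 without single libraries. Across ages it was 8 and 7 with limma (pseudocount 1 and 0.1), 10 with voom, 1 with the Il10KO groups alone, 8 without the low-RIN libraries, 7 with RIN, 0 with cage and 1 to 9 without single libraries. The share of all genes called moved with the setting too. With RIN as a covariate it was 46.5% at week 10 and 0% at week 14. With DESeq2 it was 1.4% at week 8 and 15.5% at week 12, against 0.0675% and 1.85% in edgeR. For the other settings of this paragraph that share is not given here, so their counts cannot be set apart from a shift of all genes. The cause of these differences was not tested. The replicate block gave 4 at week 10 (Car2 lost, edgeR adjusted p = 0.0558) and 5 at week 14. Replicate numbers did not pair the mice: deviations of same-numbered libraries correlated from -0.62 to 0.48 over 45 pairs, with a median of 0.02. Slc9a3, at 4.39 to 37.1 CPM, had the fewest counts and the widest relative spread at week 6. With 3 mice a group, single libraries decided most calls other than those of Car1 at weeks 10 and 14.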
